A study of Mus musculus with 6 samples.

Results

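The genes described here are the 2 corticosteroid receptors of the mouse, Nr3c1 and Nr3c2, and 8 genes known as targets of glucocorticoid signalling: Fkbp5, Sgk1, Tsc22d3, Zbtb16, Pdk4, Plin4, Errfi1 and Ddit4. They were taken by symbol, through the gene identifiers of GENCODE release M21, from a deposited table of 17889 genes, and all 10 were in it. The tissue was the prefrontal cortex of juvenile C57BL/6J mice at postnatal day 28, and poly(A) RNA was sequenced in bulk. The 3 samples titled Hetero have the genotype Cyfip2 mutant, and the 3 WT samples are wild type. The product of Cyfip2 belongs to the WAVE complex, a regulator of actin assembly. The labels do not give the mutated part of Cyfip2, the sex of the mice, or whether each sample is 1 mouse, so each p-value refers to the spread among samples, whose source (mice or handling) is not known.

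Corticosterone, the main glucocorticoid of mice, enters cells and binds Nr3c1, the glucocorticoid receptor, and Nr3c2, the mineralocorticoid receptor. The loaded receptor leaves its chaperone complex, moves to the nucleus and binds DNA at glucocorticoid response elements, inverted copies of a 6-base motif with a short spacer between them. In brain, Nr3c2 has the higher affinity for corticosterone, while Nr3c1 is engaged at the peaks of the daily rhythm and under stress. Response genes such as Fkbp5, which lowers the receptor's affinity for its hormone, and Tsc22d3, also called GILZ, are widely used as readouts of receptor activity.

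Values are the authors' normalized counts, scaled between samples, and tests were made on log2(value + 1). Column totals lay between 29879143 and 30735443 by that scaling and do not show depth. The spacing of low values gave an estimate of 25500000 to 43900000 assigned reads per library, with Hetero sample 3 the deepest. Cyfip2 itself averaged 20160 ± 1630 in Hetero and 29977 ± 2260 in WT (SD, n = 3 each), with no overlap, a log2 difference of -0.57 ± 0.07 (SE), a limma adjusted p of 0.31 and an exact two-sided permutation p of 0.1, the smallest that 3 against 3 samples allow. Excitatory neuron markers (10 of 10 tested) summed to 231079 to 234471 normalized counts in Hetero and 237695 to 251112 in WT, so neuronal transcripts were abundant in every library. These are bulk samples, in which fewer cells of a type and less RNA per cell cannot be told apart.

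A difference between Hetero and WT was not detected for any of the 10 genes. In limma, 0 of the 10 were called at an adjusted p under 0.05. Of the 14969 genes tested, 0 (0%) were called higher and 0 (0%) lower in Hetero. At an unadjusted p under 0.05 there were 0 of the 10, against 573 of all tested genes (3.83%). The 3 Hetero values and the 3 WT values overlapped for each of the 10 genes, while the groups did not overlap for 1306 tested genes (8.72%). The fitted log2 difference, Hetero minus WT, was above 0 for 7 genes and below 0 for 3, with a median of 0.06 against -0.002 over all tested genes. For 9 of the 10 the 95% interval of the ratio lay within 1.5-fold in both directions, and Plin4, the gene with the lowest counts, was the exception.

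**Figure D1:**
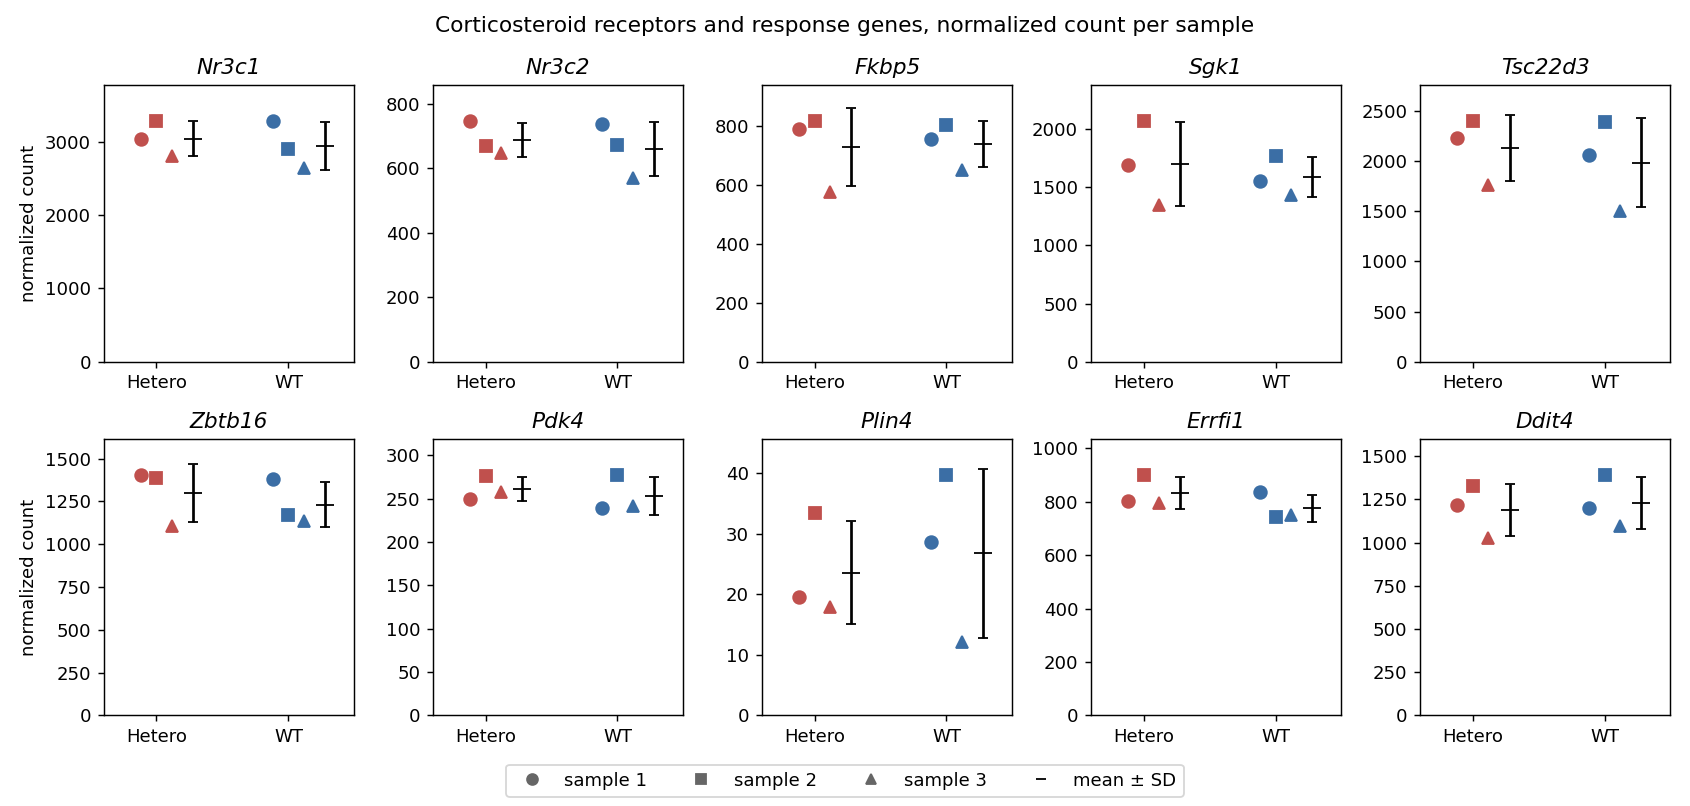
Normalized count (y axis, from 0) of each of the 10 genes in 3 Hetero and 3 WT samples; the marker shape is the sample number and the bar is the mean ± SD. The groups overlap for each gene, and sample 3 of both groups is low for Fkbp5, at 577 in Hetero and 652 in WT.

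Nr3c1 (ENSMUSG00000024431, chromosome 18, 39410545 to 39519421, minus strand, GRCm38) had 3041, 3278 and 2799.9 normalized counts in Hetero samples 1 to 3, against 3283, 2901 and 2637 in WT samples 1 to 3. Sample 3 was the lowest of each group. On the log2 scale the difference was 0.05 ± 0.09 (SE) with a 95% interval of -0.15 to 0.25 (limma adjusted p = 1.00).

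Nr3c2 (ENSMUSG00000031618, chromosome 8, 76899442 to 77245012, plus strand) had 747, 670 and 647 in Hetero samples 1 to 3, against 737, 674 and 570 in WT samples 1 to 3. WT sample 3 lay below every other sample, and the other 2 WT values lay inside the Hetero range. The log2 difference was 0.06 ± 0.11 (SE) with a 95% interval of -0.17 to 0.30 (limma adjusted p = 1.00). The balance of the receptors, the log2 value of Nr3c2 minus that of Nr3c1 without correction for length, was -2.02, -2.29 and -2.11 in Hetero samples and -2.15, -2.10 and -2.21 in WT samples. These values overlapped as well, with the WT samples inside the range of the Hetero samples.

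Fkbp5 (ENSMUSG00000024222, chromosome 17, 28399094 to 28517527, minus strand) encodes the co-chaperone FKBP51 and is induced by the receptor it holds back. It had 791, 816 and 577 in Hetero samples 1 to 3, against 757, 804 and 652 in WT samples 1 to 3. Sample 3 of both groups lay below the other samples, and the remaining values of the groups overlapped. Hetero minus WT, the log2 difference was -0.03 ± 0.14 (SE) with a 95% interval of -0.34 to 0.28 (limma adjusted p = 1.00). Leaving out sample 3 of both groups, an alternative chosen after seeing the data, gave 0.043, of opposite sign and without a call.

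Tsc22d3 (ENSMUSG00000031431, chromosome X, 140539528 to 140600659, minus strand) encodes a leucine zipper protein that restrains inflammatory transcription factors. It had 2228, 2399 and 1765 in Hetero samples 1 to 3, against 2058, 2385 and 1505 in WT samples 1 to 3. The highest value of each group was in sample 2 and the lowest in sample 3, a spread of 1.59-fold over the 6 samples. On the log2 scale the difference was 0.12 ± 0.18 (SE) with a 95% interval of -0.30 to 0.54 (limma adjusted p = 1.00). Without WT sample 3 it was -0.068, of opposite sign.

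Sgk1 (ENSMUSG00000019970, chromosome 10, 21882184 to 21999903, plus strand) encodes a serum and glucocorticoid regulated kinase that acts on ion channels and transporters. It had 1692, 2069 and 1344 in Hetero samples 1 to 3, against 1556, 1772 and 1433 in WT samples 1 to 3. Hetero samples held both the highest and the lowest value, and the WT values lay inside their range. The log2 difference was 0.08 ± 0.15 (SE) with a 95% interval of -0.26 to 0.43 (limma adjusted p = 1.00). Without Hetero sample 2 it was -0.068, of opposite sign.

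Start site sequence was examined for the glucocorticoid response element, since these genes are known receptor targets. RefSeq windows of 300 bases on GRCm38.p6, from 250 before to 50 after a transcript start, were at hand for 8 of the 10 genes, 16 windows in all. The 6-base motif was searched as AGAACA or its reverse complement TGTTCT, which finds it on either strand, and the full element as AGAACA and TGTTCT separated by any 3 bases. The 6-base motif was in 4 of the 16 windows, 3 of them at Sgk1 and 1 at Tsc22d3, against 19.0% of all 32851 windows of this length. The full element was in 1 window, that of an Sgk1 start, and in 3 of the 32851 windows (0.00913%). It reads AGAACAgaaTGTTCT at chr10:21993701-21993715 on the plus strand, and its first base lies 189 bases before that start. The windows of Fkbp5, Pdk4, Plin4, Errfi1, Ddit4 and Nr3c2 held no exact copy of the motif. Only exact copies were searched for, so elements that differ from these bases would be missed. A match is a description of the sequence: no receptor binding was measured, and response elements can lie outside these windows. The Sgk1 window with the full element and the Tsc22d3 window with the motif are shown, with each copy of the motif in capitals. The other Sgk1 windows with the motif are not shown. The Sgk1 window shown is 1 of 6 and lies at chr10:21993640-21993939, plus strand. The Tsc22d3 window shown is 1 of 3 and lies at chrX:140600473-140600772, minus strand.
Sgk1 start: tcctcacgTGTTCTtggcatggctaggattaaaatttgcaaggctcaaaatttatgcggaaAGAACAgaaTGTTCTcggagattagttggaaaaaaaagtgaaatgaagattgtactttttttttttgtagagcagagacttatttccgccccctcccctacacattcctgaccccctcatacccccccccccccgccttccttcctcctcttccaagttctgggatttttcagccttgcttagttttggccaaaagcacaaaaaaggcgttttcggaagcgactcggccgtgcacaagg
Tsc22d3 start: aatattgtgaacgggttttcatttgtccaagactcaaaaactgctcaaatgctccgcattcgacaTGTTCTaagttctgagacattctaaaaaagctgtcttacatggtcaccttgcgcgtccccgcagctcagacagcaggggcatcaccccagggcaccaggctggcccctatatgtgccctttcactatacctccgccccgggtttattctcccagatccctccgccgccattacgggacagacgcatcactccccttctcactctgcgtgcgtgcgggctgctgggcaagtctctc

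Among the other response genes, Ddit4 and Zbtb16 were also expressed at over 1000 normalized counts. Ddit4 (ENSMUSG00000020108, chromosome 10, 59949669 to 59951834, minus strand), which encodes the mTORC1 inhibitor REDD1, had 1215, 1325 and 1028 in Hetero samples 1 to 3, against 1198, 1394 and 1096 in WT samples 1 to 3. As for Tsc22d3, sample 2 was the highest and sample 3 the lowest of each group. Hetero minus WT, the log2 difference was -0.05 ± 0.11 (SE) with a 95% interval of -0.30 to 0.21 (limma adjusted p = 1.00). Zbtb16 (ENSMUSG00000066687, chromosome 9, 48654297 to 48836222, minus strand), a zinc finger transcription factor also called PLZF, had 1406, 1386 and 1105 in Hetero samples 1 to 3, against 1382, 1172 and 1138 in WT samples 1 to 3. Hetero held 2 of the 3 highest values and also the lowest one. On the log2 scale the difference was 0.07 ± 0.11 (SE) with a 95% interval of -0.17 to 0.32 (limma adjusted p = 1.00).

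Errfi1 (ENSMUSG00000028967, chromosome 4, 150853919 to 150868892, plus strand), which encodes the EGF receptor inhibitor MIG6, had 804, 901 and 794 in Hetero samples 1 to 3, against 834, 743 and 749.9 in WT samples 1 to 3. Only WT sample 1 lay among the Hetero values. Its unadjusted limma p of 0.25 was the smallest of the 10 genes, at a log2 difference of 0.10 ± 0.08 (SE) with a 95% interval of -0.08 to 0.29 (limma adjusted p = 1.00).

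Pdk4 and Plin4 belong to fuel metabolism. Pdk4 (ENSMUSG00000019577, chromosome 6, 5483351 to 5496309, minus strand), a kinase that shuts off pyruvate dehydrogenase, had 249.9, 276 and 257 in Hetero samples 1 to 3, against 239, 278 and 242 in WT samples 1 to 3. It varied least of the 10, by 1.16-fold between its lowest and highest sample, and its log2 difference was 0.05 ± 0.11 (SE, limma adjusted p = 1.00). Plin4 (ENSMUSG00000002831, chromosome 17, 56100591 to 56109803, minus strand), a lipid droplet coat protein, had 19.5, 33.3 and 17.8 in Hetero samples 1 to 3, against 28.6, 39.8 and 12.05 in WT samples 1 to 3. It varied most, by 3.30-fold, and the WT values enclosed the Hetero values. Its log2 difference of -0.08 ± 0.43 (SE) has a 95% interval of -1.06 to 0.89, which spans ratios of 0.481 to 1.85 (limma adjusted p = 1.00).

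**Figure D2:**
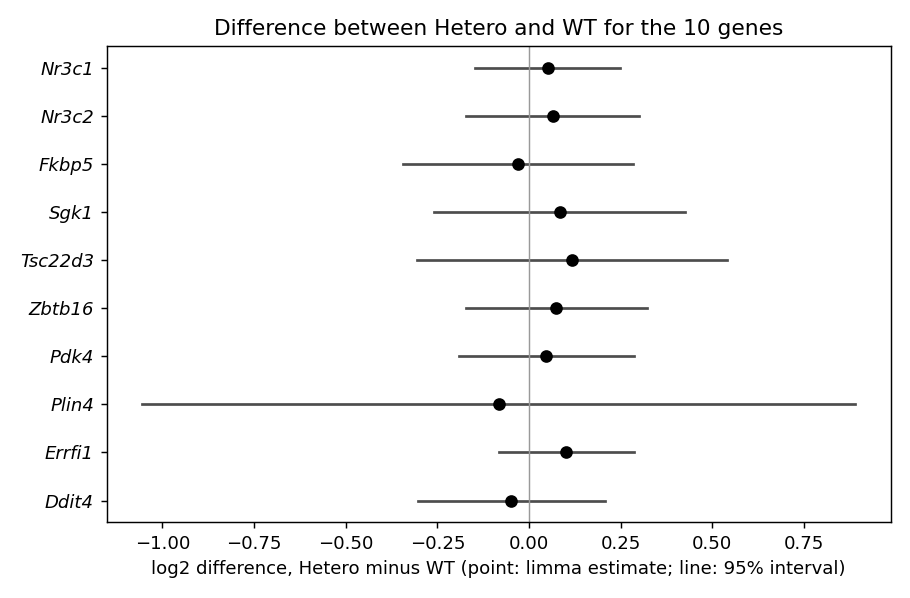
Log2 difference, Hetero minus WT (x axis), for each of the 10 genes (y axis); points are limma estimates and lines their 95% intervals from 3 samples a group. Each interval includes 0, and that of Plin4, from -1.06 to 0.89, is the widest.

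Levels were compared between genes per kilobase of annotated exons, over all 6 samples. Ddit4 stood highest at 689 ± 77.9 normalized counts per kilobase (SD, n = 6), above Tsc22d3 at 474 ± 82.6 with no overlap between samples. Tsc22d3, Nr3c1 at 389 ± 33.9 and Sgk1 at 335 ± 53.3 overlapped each with the next. Zbtb16 at 239 ± 26.6 and Errfi1 at 225 ± 16.3 overlapped each other and lay below Sgk1. Nr3c2 at 104 ± 9.97 lay below these, so each library held more glucocorticoid receptor than mineralocorticoid receptor message per kilobase. Fkbp5 at 77.4 ± 10.2 and Pdk4 at 73.2 ± 4.75 overlapped, and Plin4 was lowest at 4.36 ± 1.82. The exon length counts all annotated isoforms, which understates genes expressed from a short isoform.

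Most of the genes varied in the same direction across samples. Of the 45 pairs among the 10 genes, 44 had a Pearson r above 0 over the 6 samples, with a median of 0.66. Over all pairs of the 14969 tested genes the median was -0.001. An r of at least 0.8 was reached by 10 of the 45 pairs (22.2%), against 3.89% of all pairs of tested genes. Pairs that share a gene or a library are not independent, so these shares are descriptions. After group means were subtracted the median was 0.65.

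The closest pair was Fkbp5 and Ddit4, with a Pearson r of 0.92 (exact permutation p = 0.0042 over 720 orders, two-sided, adjusted p = 0.19 over the 45 pairs) and a Spearman rho of 0.94 (exact p = 0.017, adjusted p = 0.15). Fkbp5 and Sgk1 ordered the 6 samples identically, at a rho of 1 (exact permutation p = 0.0028, adjusted p = 0.125) and an r of 0.88. Among the response genes, the 8 pairs at or above 0.8 involved Fkbp5, Sgk1, Tsc22d3, Plin4 and Ddit4. Nr3c1 was closest to Zbtb16, at an r of 0.87, and to Errfi1, at 0.82. Pdk4 stood apart from the receptors, with an r of 0.17 to Nr3c1 and 0.01 to Nr3c2, and its r to Zbtb16 was -0.06. At an unadjusted exact permutation p under 0.05 there were 10 pairs by Pearson and 8 by Spearman, and 0 pairs passed after Benjamini-Hochberg adjustment over the 45 pairs in either.

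**Figure D3:**
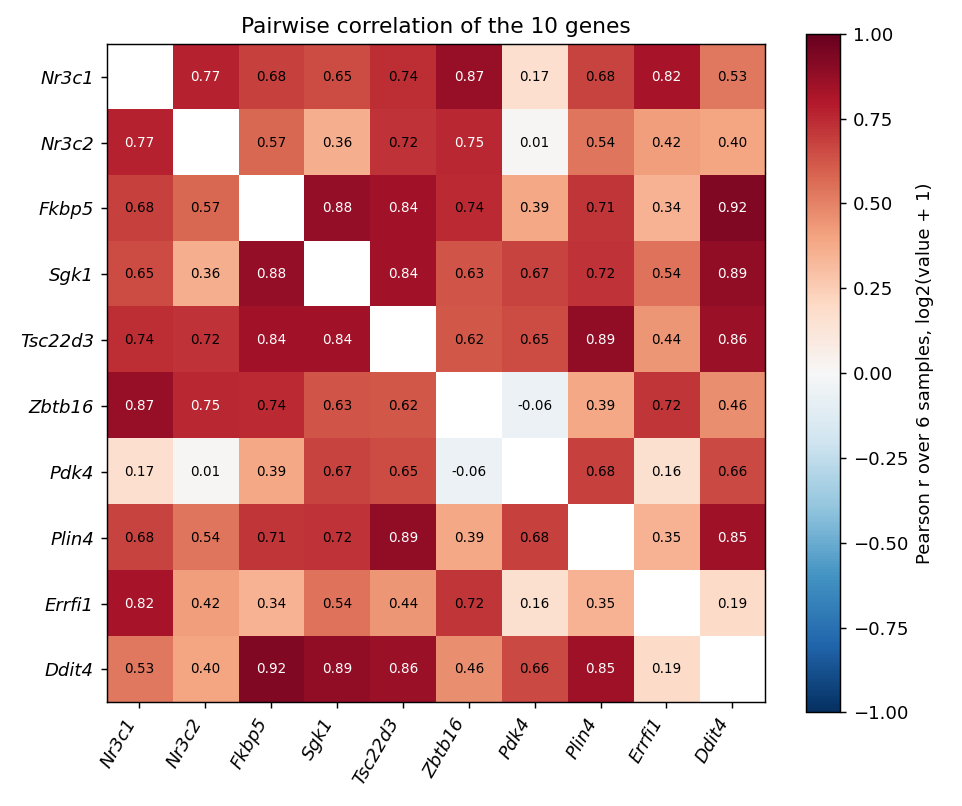
Pearson r of log2(value + 1) over 6 samples for each pair of the 10 genes; colour and printed number give r, and the diagonal is left blank. The darkest cell is that of Fkbp5 and Ddit4, at 0.92, and the cell of Zbtb16 and Pdk4 has the lowest value, -0.06.

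Sample 3 of each group was low for most of the 10 genes. In Hetero, 9 of the 10 genes were lowest in sample 3, against 38.7% of all tested genes, and in WT 8 of the 10 were lowest in sample 3, against 35.6% of tested genes. Sample 2 was highest for 8 of the 10 genes in Hetero, against 31.8% of tested genes, and for 6 of the 10 in WT, against 30.4%. Without sample 3 of both groups, an alternative chosen after seeing the data, the median r of the 45 pairs over the remaining 4 samples was 0.079, and 22 pairs had an r below 0. The 10 pairs at or above 0.8 in all samples, picked for that r on libraries that include those 4, ranged from 0.50 for Tsc22d3 and Plin4 to 0.98 for Fkbp5 and Tsc22d3 over the 4. Without the 2 samples farthest from the median of the first gene of each pair, those 10 pairs had an r between 0.50 and 0.98 and the median over all 45 was 0.45. With 1 of these samples left out, the median over all 45 pairs was 0.70 without Hetero sample 3 and 0.50 without WT sample 3. Since sample 3 was left out after it was seen to be low for most of the 10 genes, a lower r follows in part from that choice, and the values are given as a description.

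Several lists that concern other cells or states had their highest level in sample 3 of each group, and others did not. Blood transcripts (5 of 5 tested, 4 globin genes and Alas2, none at 0 in a library) summed to 21029, 21490 and 52504 normalized counts in Hetero samples 1 to 3, against 27154, 14808 and 46065 in WT samples 1 to 3. Immediate early genes (16 of 16 tested) had a mean log2 level, relative to each gene's mean over the 6 samples, of -0.17, -0.19 and 0.40 in Hetero samples 1 to 3, against -0.07, -0.12 and 0.15 in WT samples 1 to 3. Mature oligodendrocyte markers (12 of 12 tested, none at 0) summed to 99038, 111743 and 129332 in Hetero samples 1 to 3, against 93733, 115734 and 150612 in WT samples 1 to 3. By the level of each of these 3 lists sample 3 was the highest of its group, where Fkbp5, Sgk1, Tsc22d3, Ddit4 and Plin4 were lowest. Single immediate early genes differed from their list mean in WT. There Btg2, Npas4 and Ier2 were among those highest in sample 3, while Egr1, Egr2, Egr4, Ier5, Fosl2 and Dusp5 were lowest in it. Sample 3 was also the highest of each group for endothelial markers, at a mean log2 level of 0.15 in Hetero and 0.11 in WT, and for microglia, at 0.02 in Hetero and 0.09 in WT. So it was for inhibitory neurons, at 0.05 in Hetero and 0.04 in WT, though Hetero sample 1 was close, at 0.04. Excitatory neuron markers were instead lowest in sample 3 of both groups, at -0.02 in each, with Hetero sample 2 close. Astrocyte markers were highest in Hetero sample 3, at 0.03, but in WT sample 2, at 0.09. Pericyte and smooth muscle markers were highest in Hetero sample 3, at 0.07, and lowest in WT sample 3, at -0.07. The share of all tested genes highest in sample 3 was not counted. These are list means. The endothelial Slc2a1 was lowest in sample 3 of both groups. The microglial P2ry12 and Tmem119, and Gad2, Adarb2 and Lhx6 of the inhibitory list, were lowest of their group in Hetero sample 3. The median r to Fkbp5 was -0.93 for blood markers, -0.75 for immediate early genes, -0.69 for endothelial markers and -0.65 for oligodendrocyte markers. To Nr3c1, the marker list with the median r farthest from 0 was that of oligodendrocytes, at -0.82. Meningeal and fibroblast markers had a median of 0.73 to Nr3c1 but 0.11 to Fkbp5, and microglia markers one of -0.68 to Nr3c1. The level of meningeal and fibroblast markers was -0.10, 0.32 and 0.21 in Hetero samples 1 to 3, against 0.27, -0.34 and -0.37 in WT samples 1 to 3. The part of these lists in the shared variation was not tested. Of the other marker lists, the median log2 difference was -0.06 for astrocytes, 0.03 for endothelium, -0.03 for pericytes and smooth muscle, -0.10 for microglia, -0.05 for excitatory neurons, 0.05 for inhibitory neurons and 0.23 for meninges and fibroblasts, and 0 of their genes were called. It was 0.14 for blood, -0.06 for oligodendrocytes and 0.01 for immediate early genes, also with 0 called. At an unadjusted limma p under 0.05 there were 3 of the 10 excitatory neuron markers, against 3.83% of tested genes. These were Rorb, higher in Hetero, and Camk2a and Slc17a7, both lower. The groups did not overlap for the same 3, against 8.72% of tested genes. At that p there were 2 of 12 astrocyte markers and 1 of 10 in each of the pericyte, microglia, inhibitory neuron and meningeal lists. Of the immediate early genes there were 2 of 16, Jun and Ier5, both higher in Hetero.

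**Figure D4:**
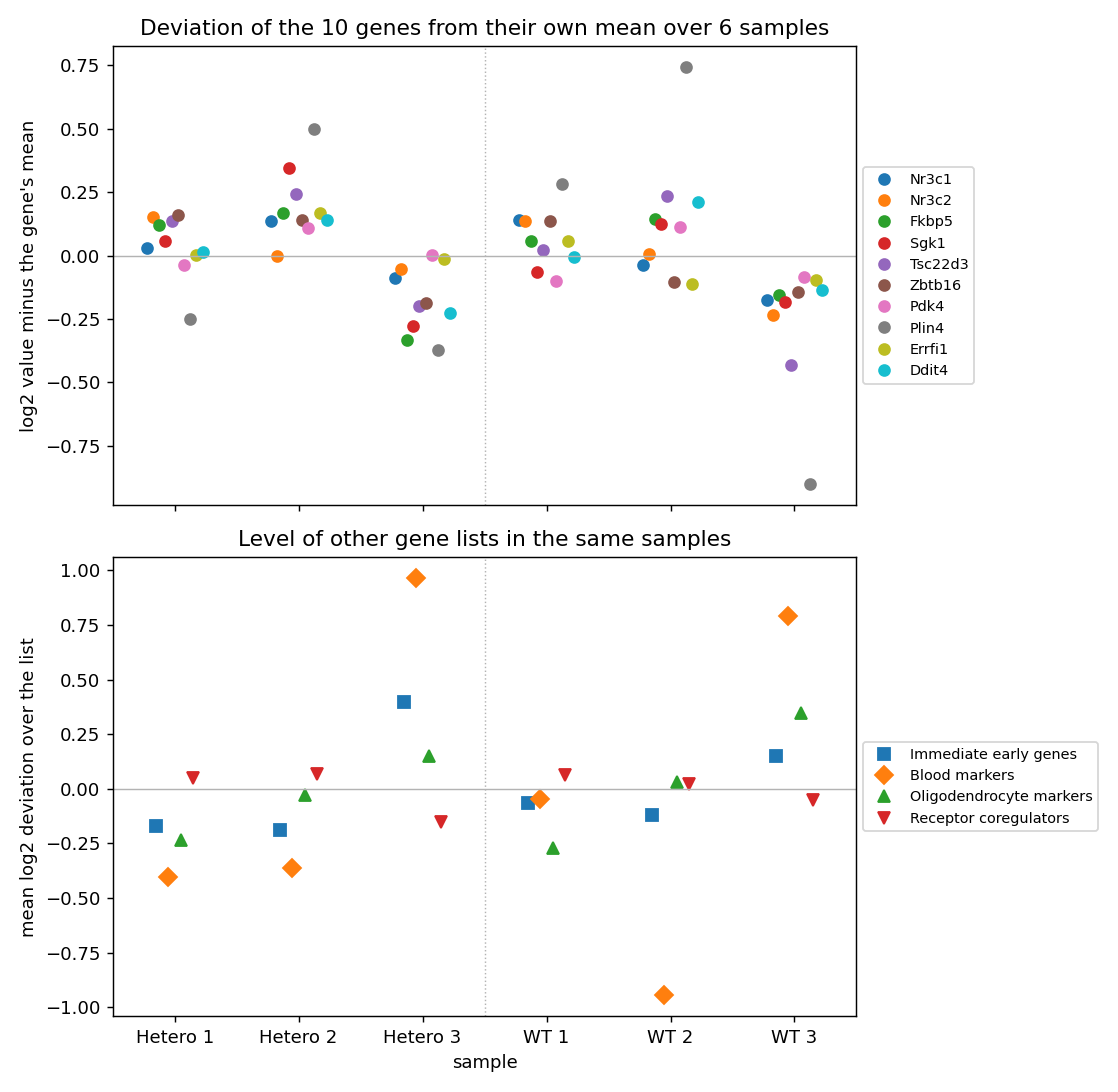
Upper panel: log2 value of each of the 10 genes minus its mean over the 6 samples (y axis), by sample (x axis). Lower panel: mean of the same deviation over 4 other gene lists. In Hetero sample 3 and WT sample 3 most of the 10 genes lie below 0, while blood markers lie at 0.97 and 0.79 and immediate early genes at 0.40 and 0.15.

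A wider list of 22 other glucocorticoid response genes gave 0 called genes in limma, with 12 fitted differences above 0 and 10 below, and a median of 0.01 against -0.002 over all tested genes. At an unadjusted p under 0.05 there was 1 gene, Map3k6, a stress kinase gene, with 88.2 ± 16.8 in Hetero and 124 ± 22.3 in WT (SD, n = 3 each) and a log2 difference of -0.49 ± 0.19 (SE, limma adjusted p = 1.00). Rhob, a small GTPase gene, had a log2 difference of 0.14 ± 0.07, Cdkn1a, the cell cycle inhibitor p21, -0.31 ± 0.16, and Cebpd, a transcription factor of acute responses, 0.28 ± 0.16 (SE each). None of these passed the threshold.

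Part of the wider list followed the same sample pattern, and some of its genes had a negative r. An r of -0.8 or below was found for 1 of the 22 to Fkbp5, Dusp1, and for 2 of the 22 to Tsc22d3, Dusp1 and Cdkn1a. The share of all tested genes at or below -0.8 was not counted, so whether these counts exceed it is not known. An r of at least 0.8 to Tsc22d3 over the 6 samples was found for 9 of the 22, against 4.80% of tested genes, and to Fkbp5 for 7 of the 22, against 8.97% of tested genes; these are descriptions with no test. The next 3 genes were chosen after their values were seen. Per1, a clock gene induced through the glucocorticoid receptor, had 4579, 4907 and 4242 in Hetero samples 1 to 3, against 4418, 4642 and 3785 in WT samples 1 to 3, an r of 0.97 to Tsc22d3. Klf9, a Krüppel-like factor, had 6075, 6522 and 5032 in Hetero samples 1 to 3, against 5803, 5697 and 5000 in WT samples 1 to 3, an r of 0.88 to Fkbp5. Both were lowest in sample 3 of each group. Dusp1, a phosphatase gene induced by glucocorticoids and by neuronal activity, had 1247, 1212 and 2406 in Hetero samples 1 to 3, against 1082, 1127 and 1973 in WT samples 1 to 3, an r of -0.95 to Fkbp5. It was highest in sample 3 of both groups, as were the immediate early genes as a list.

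Genes that act on the receptors gave no calls either. Of 12 chaperones and co-chaperones of the receptor complex, 0 were called, 7 had a fitted difference above 0 and 5 below, and the median was 0.01. Hsp90aa1, the inducible HSP90, averaged 26355 ± 247 in Hetero and 24621 ± 1287 in WT (SD, n = 3 each), a log2 difference of 0.10 ± 0.05 (SE, limma adjusted p = 1.00). Fkbp4, whose product FKBP52 competes with that of Fkbp5 for the complex, averaged 2965 ± 189 in Hetero and 2758 ± 5.33 in WT, a log2 difference of 0.10 ± 0.06. The groups did not overlap for 3 of these 12 genes, Hsp90aa1, Fkbp4 and the phosphatase gene Ppp5c, against 8.72% of tested genes. Ppp5c was named after its values were seen.

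Of 13 coregulators, 0 were called, 5 had a fitted difference above 0 and 8 below, and the median was -0.02. Carm1, an arginine methyltransferase, averaged 2320 ± 21.7 in Hetero and 2490 ± 86.3 in WT (SD, n = 3 each), with no overlap and a log2 difference of -0.10 ± 0.05 (SE, limma adjusted p = 1.00), and Ncoa2, the coactivator also called GRIP1, differed by -0.12 ± 0.10. Their level was lowest in Hetero sample 3, at -0.15 on the log2 scale, and 8 of the 13 had an r of at least 0.8 to Fkbp5, against 8.97% of tested genes. To Tsc22d3 it was 3 of the 13, against 4.80% of tested genes, and to Nr3c1 3 of the 13, against 7.57%.

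Of 7 genes of corticosteroid handling, 5 were tested and 0 called, with a median of -0.03. Hsd11b1, which regenerates corticosterone from its inactive form, was named after its values were seen and averaged 646 ± 53.3 in Hetero and 646 ± 21.4 in WT (SD, n = 3 each). Abcb1b, a P-glycoprotein gene, averaged 81.7 ± 8.56 in Hetero and 101 ± 11.6 in WT with no overlap, a log2 difference of -0.31 ± 0.16 (SE, limma adjusted p = 1.00), and H6pd, which supplies the cofactor of Hsd11b1, differed by 0.11 ± 0.09. Of 8 peptides and receptors of the stress axis, 5 were tested and 0 called, with a median of -0.15. Crhbp, the binding protein of corticotropin-releasing hormone, averaged 528 ± 55.4 in Hetero and 586 ± 59.4 in WT, and Pomc 27.3 ± 9.26 in Hetero and 35.8 ± 14.2 in WT (SD, n = 3 each). Of 15 paralogs of the 10 genes, 13 were tested and 0 called, with a median of -0.04, and the smallest p belonged to the lipid droplet gene Plin2, at -0.20 ± 0.15 (SE), and to the kinase gene Sgk2, at -0.25 ± 0.21 (SE).

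Other genes with the closest sample pattern were taken by Pearson r over the 6 samples among protein-coding genes with a mean of at least 50. Nearest to Nr3c1 were Acsl4 (r = 0.997), Hey2 (0.994) and Togaram1 (0.992). Nearest to Nr3c2 were Sltm (0.997), Zfp109 (0.993) and Cul2 (0.989). Nearest to Fkbp5 were Ano3 (0.996), Ubp1 (0.993) and Wipi2 (0.990). Nearest to Sgk1 were Cmya5 (0.980), Rufy1 (0.977) and Hspa2 (0.973), and nearest to Tsc22d3 were Pcdhga9 (0.990), Phyhip (0.989) and Gvin1 (0.986). These r values are the highest of a search over all such genes in 6 samples, and no test was made.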

How the data were processed

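Per the labels' protocols, poly(A) libraries were made with a TruSeq Stranded mRNA kit. The authors deposited 1 table of normalized counts per gene, used here as a signal that is not whole, never negative and summing to nearly the same total per sample. Tools named in the submitters' processing notes are DESeq2 1.19.11, Salmon 0.11.2 and R 3.6.0, with build GRCm38. For annotation, scaling formula and filters, nothing is given in the sources used here. Most low values were not whole multiples of 1 step (15.5% to 28.1% of values under 60, within 0.02 of a whole multiple), so whole reads could not be recovered and no count test was run. The column total divided by that step gave the estimated reads.

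Identifiers were matched to GENCODE M21 (17875 matched, 14 did not). Genes with a mean of at least 10 were tested on log2(value + 1), a scale that understates changes of low genes, with limma 3.58.1 in R 4.3.3 (trend and robust fitting, two-sided, Benjamini-Hochberg over 14969 genes, threshold 0.05). All 10 genes passed this filter. The procedure was tested on simulated data. The smallest median absolute log2 difference between samples of 1 group was 0.09, so no column was a copy of another of its group. That does not show whether samples came from separate mice. Correlations used exact permutation over 6 samples with Python 3.11.15.

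The 10 genes and the 16 lists (6 of pathway genes, immediate early genes, and 9 of cell type markers) were chosen with earlier results of these data known. Named were the 10 genes, the 2 genes with the smallest p of each pathway list (4 of the other response genes), 3 genes of closest pattern for 5 of the 10, and genes said to be chosen after seeing values. The alternatives tried were a plain limma fit (neither trend nor robust), centring on the median, scaling to the 75th percentile, a filter of 50 or none, a pseudocount of 0.5 or 8, the replicate number as block, omission of each sample and, added later, of sample 3 in both groups. The labels give no batch or date.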

Additional observations from a re-analysis of the deposited data

How the results depend on the processing

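None of the 10 genes was called under any alternative and no pathway list gene under any planned one, and the smallest adjusted p of the 10 genes was 0.93. The plain fit, the other filters and the block cannot change a log2 difference, so a matching sign there carries no information. Over 149 refits, these included, the sign of a log2 difference matched the reported one in 135. It turned in 13 that left out 1 sample, whose values ranged from -0.025 to 0.13 for Nr3c1, -0.038 to 0.15 for Nr3c2, -0.12 to 0.13 for Fkbp5, -0.068 to 0.24 for Sgk1, -0.068 to 0.26 for Tsc22d3, -0.55 to 0.27 for Plin4 and -0.13 to 0.053 for Ddit4. It also turned for Fkbp5 without sample 3 of both groups (0.043). The samples whose omission turned a sign were Hetero 2 and WT 3 for Nr3c1, WT 3 for Nr3c2 and Tsc22d3, Hetero 2 for Sgk1, Hetero 3 and WT 2 for Fkbp5 and Ddit4, and each sample but Hetero 2 and WT 3 for Plin4. The cause was not tested. Plin4 fell under the filter at a mean of 50. Over all genes, leaving out 1 sample gave 0 to 1 called higher and 0 to 1 lower, and leaving out sample 3 of both groups 3 higher and 1 lower. The median r of the 45 pairs lay between 0.50 and 0.78 when 1 sample was left out and was 0.079 without sample 3 of both groups.

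The labels link samples of the groups by number only. The deviations of same-numbered samples correlated at -0.01, 0.00 and 0.23, and not every sample was closest to its own number. The 0.23, between the samples numbered 3, was the highest of all pairs of a Hetero and a WT sample. Whether those samples share anything beyond the number was not tested. With the replicate number as a block, 1 gene was called higher in Hetero, the immediate early gene Jun (log2 difference 0.73, limma adjusted p = 0.0035). The 1 called lower was Cyfip2 itself (-0.57, limma adjusted p = 0.0016, against 0.31 without the block). At an unadjusted limma p under 0.05 there were 788 genes, against 573 without the block, and 0 of the 10 genes. The smallest unadjusted limma p of the 10 was 0.095, for Tsc22d3. Its SE was 0.06 with the block and 0.18 without, while that of Errfi1 was 0.08 in both.

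Depth is known only as an estimate, and the spread between 3 samples limits the precision: the median standard error of a log2 difference over tested genes was 0.10.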
